A study of Rattus norvegicus with 18 samples.

Results

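The comparison is that of rat retinas exposed to bright light after saffron feeding (SafLD) with retinas exposed to the same light and given no saffron (LD). Its members are the 6 arrays that the sample titles place in these groups, 3 SafLD and 3 LD, out of 18 arrays in the series. The study asked whether a dietary pretreatment alters what damaging light does to gene expression in the retina. RNA had been hybridised to Affymetrix rat Gene 1.0 ST arrays, and the deposited values are log2 intensities summarised by RMA, so that a difference of 1 is a 2-fold change. All animals were Sprague Dawley rats, an albino strain, aged P80 to P120 and raised in cyclic light of 5 lux. Over 3 weeks the SafLD rats ate saffron (1 mg/kg/day) in a vegetable matrix, a food that the control rats also received. The study's methods do not state it for LD. The SafLD and LD groups then spent 24 h in fluorescent light, given as 1000 lux for SafLD. For LD, the sample descriptions and the protocol give 1000 lux and the source name gives 100 lux. RNA came from retina at the end of the exposure, and each array is 1 sample. The other groups used below are control rats, saffron rats without bright light, rats given photobiomodulation (PBM, 670 nm light for 3 min a day on 5 days) without bright light, and PBM rats that were then exposed to it (PBMLD), each with 3 arrays.

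Bright light damages rods, which make up most cells of the rat retina and carry out its dim-light vision. In the injured retina Muller glia, the radial support cells, raise Gfap and genes that act through the gp130 receptor and Stat3. Chemokines and interferon-induced genes rise and draw in microglia and macrophages, and oxidative-stress genes such as Hmox1 are induced. Saffron is a spice whose carotenoids, crocin and crocetin, are antioxidants. The retina dissected from an eye can carry traces of its neighbours, the lens and the pigment epithelium, and both have their own marker genes. Bulk RNA gives the sum over all these cells, so fewer cells of a type and less RNA per cell cannot be told apart.

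Each array held 29214 probe sets, called entities here, of which 15310 had 1 gene symbol and cover 14506 named genes, 323 had several symbols and 13581 had none. Array medians lay between 6.12 and 6.19. The 24 measured rod markers averaged between 11.2 and 11.8 on the 6 arrays. Differences are SafLD minus LD with their standard error (SE, n = 3 arrays per group), from a limma fit to all 18 arrays with Benjamini-Hochberg adjustment over all entities. An entity that passed adjusted p of 0.05 and differed by more than 2-fold is said to have risen or fallen. The 95% confidence interval of a difference extended by a median of 0.345 to either side.

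In SafLD, 71 entities fell and 4 rose relative to LD. These were 0.243% and 0.0137% of all entities. None of the 75 had a gene symbol. The number of named genes that rose or fell was 0 by limma, against 35 named entities, all lower, at an unadjusted p below 0.05 with the same fold limit. Several unnamed entities held identical values on all 18 arrays, and the 75 were 50 distinct sets of values, 46 that fell and 4 that rose. In the plot of all entities by difference and p-value, the called entities border on named ones such as Rpl39 (-1.20, adjusted p = 0.0523 by limma), which narrowly missed the threshold.

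**Figure D1:**
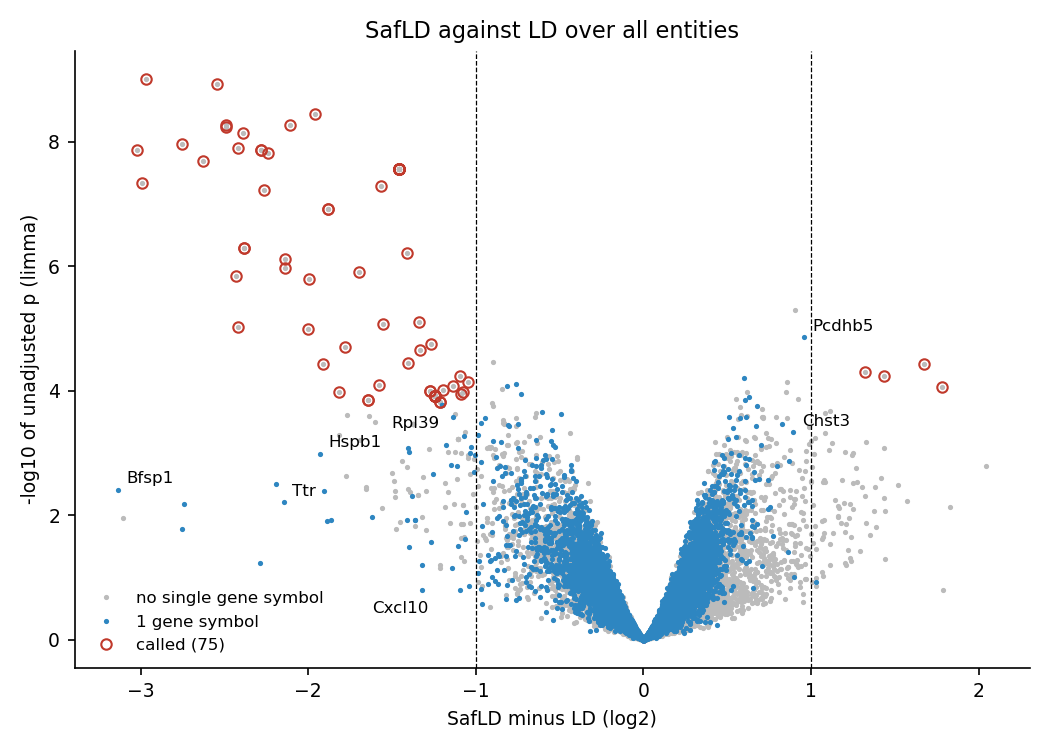
Each point is 1 of 29214 entities, with the SafLD minus LD difference in log2 units on the x axis and minus log10 of the unadjusted limma p-value on the y axis, and colours mark the entities with 1 gene symbol, those without and the 75 that were called. The called entities lie mostly on the left, down to -3.02, and the named genes with the widest differences, such as Bfsp1 at -3.13, lie lower on the y axis.

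The fall was widest in entity 10862359. It measured 10.03, 9.83 and 10.87 in LD and 7.85, 6.76 and 7.06 in SafLD. It was lower by 8.12-fold (-3.02 ± 0.30, adjusted p = 3.34e-05). Every SafLD array lay below every LD array, with LD 3 the highest of LD and SafLD 1 the highest of SafLD. Entity 10855946 showed the same order, at 9.66, 9.60 and 10.64 in LD and 7.55, 6.51 and 6.86 in SafLD. Its difference was -2.99 ± 0.32 (7.94-fold, adjusted p = 5.47e-05). Entity 10722459 measured 8.52, 8.50 and 9.52 in LD and 6.27, 5.53 and 5.83 in SafLD, a difference of -2.97 ± 0.25 (7.83-fold, adjusted p = 1.74e-05). In 61 of the 71 entities that fell LD 3 was the highest LD array, and in 63 of them SafLD 1 was the highest SafLD array.

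The next 7 falls ranged from -2.75 to -2.42. Entity 10722465 measured 10.82, 10.70 and 11.74 in LD and 8.82, 7.73 and 8.44 in SafLD, and entity 10722449 measured 10.54, 10.62 and 11.04 against 8.60, 7.78 and 8.18. In both, every LD array was above every SafLD array. Entity 10703224 measured 7.27, 7.16 and 8.68 in LD and 5.70, 5.01 and 5.13 in SafLD, and had the widest error of the 10 (-2.43 ± 0.34, adjusted p = 0.00116). The others were entities 10722427 (-2.62), 10722481 (-2.49), 10722429 (-2.49) and 10722435 (-2.42). Their groups did not overlap either, which held for all 71 falls. Over all entities, 6.50% had every SafLD array below every LD array.

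Most falls came from 1 stretch of the numbering. Of the 56 entities numbered from 10722371 to 10722481, 43 fell and the differences of the other 13 were also negative, so that the whole stretch ran from -2.97 to -0.05. None of the 56 has a gene symbol, and they hold 36 distinct sets of values, which makes the 43 falls 23 distinct measurements. A set of 11 called entities with identical values, 2 of them outside the stretch, measured 10.97, 10.66 and 11.57 in LD and 10.28, 9.39 and 9.79 in SafLD. Another 10 shared 1 set of values with a difference of -1.46. Without the stretch 16 entities passed, all of them falls. The authors class such entities as noncoding RNAs (ncRNAs), and no table used here names the transcripts. A further 6 called entities, 4 that fell and 2 that rose, belong to the 1618 lowest numbers, which no table identifies.

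The 4 entities that rose were of mixed level, with 10701578 and 10756086 both dim, far below the array medians. Entity 10701578 was among the dimmest, at 2.80, 2.93 and 3.26 in LD and 4.88, 4.53 and 4.92 in SafLD (1.78 ± 0.35, 3.44-fold, adjusted p = 0.0411). Entity 10700678 measured 8.13, 7.52 and 6.96 in LD and 9.57, 9.36 and 8.70 in SafLD (1.67 ± 0.30, 3.19-fold, adjusted p = 0.0215). Entity 10851484 went from 5.89, 5.60 and 4.81 to 6.93, 7.02 and 6.64 (1.43 ± 0.27, adjusted p = 0.0325). In these and in entity 10756086, which measured 2.99, 2.83 and 3.13 in LD and 4.05, 4.52 and 4.34 in SafLD (1.32 ± 0.25, adjusted p = 0.0286), the groups did not overlap. Over all entities 10.1% had every SafLD array above every LD array. Without the numbered stretch none of the 4 passed, and each was lost in 7 or more of the other settings tried.

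**Figure D2:**
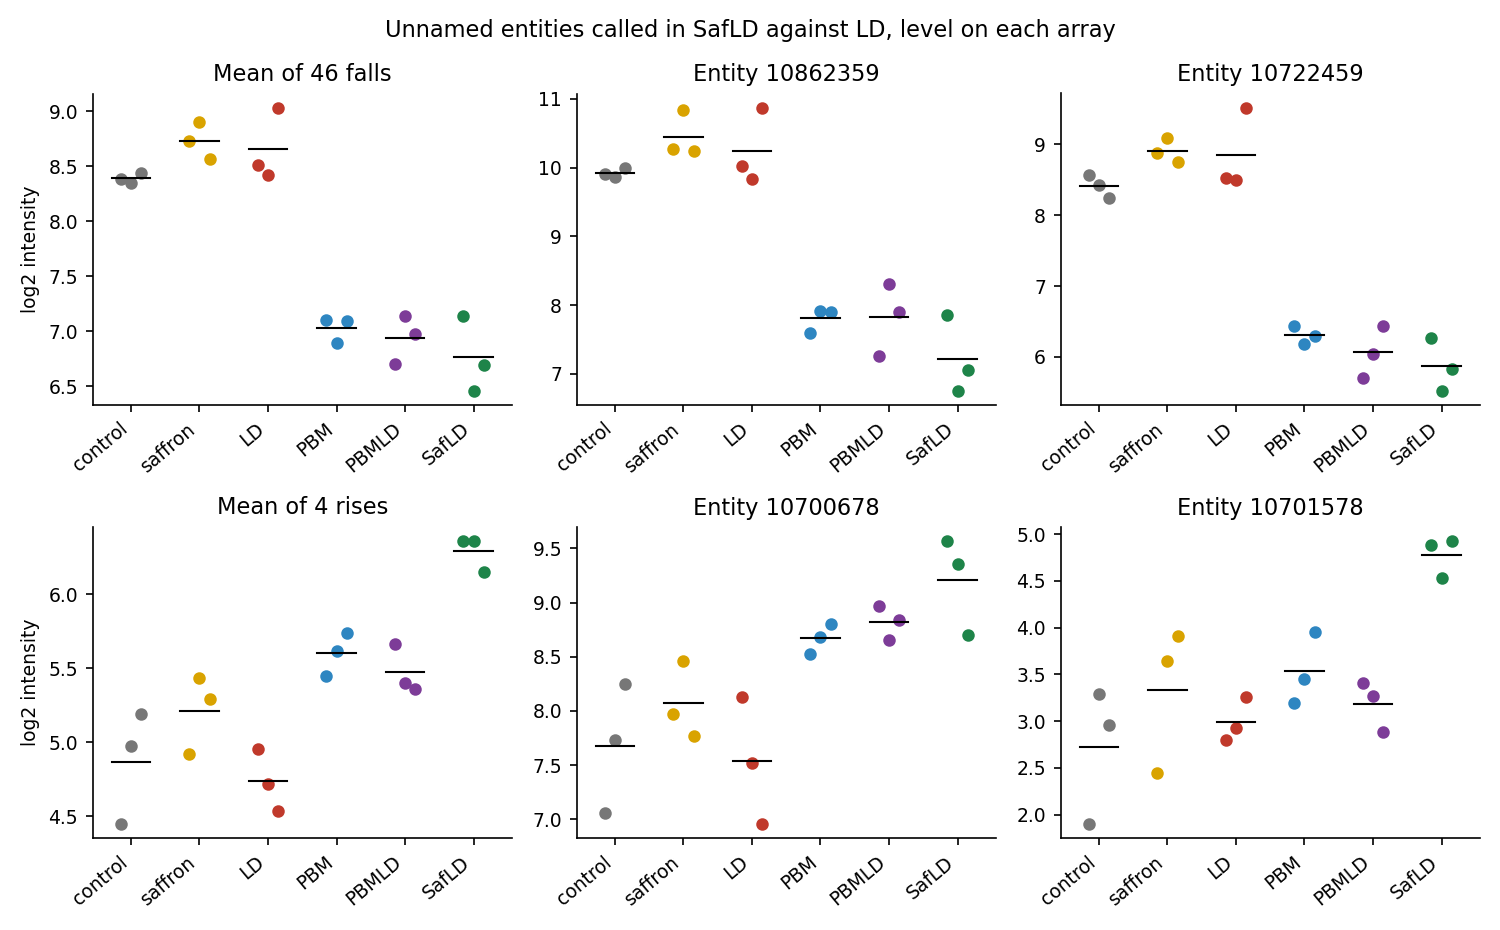
Points are arrays, grouped by treatment on the x axis, and the y axis gives the mean log2 intensity of the 46 distinct falls and of the 4 rises on each array. The falls sit at 8.42 to 9.03 in LD and 6.46 to 7.13 in SafLD, while PBM and PBMLD arrays sit with SafLD and control and saffron arrays with LD.

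The entities that fell were also read in the other groups. Averaged over the 46 distinct falls, the LD arrays stood at 8.51, 8.42 and 9.03 and the SafLD arrays at 7.13, 6.46 and 6.69. Control arrays stood between 8.35 and 8.44, and saffron arrays without bright light between 8.57 and 8.91. LD thus ran from the control level upwards, and SafLD was below both. The PBM arrays, from rats that had neither saffron nor bright light, stood between 6.89 and 7.10, and the PBMLD arrays between 6.70 and 7.13. In 68 of the 71 falls, all 9 arrays of PBM, PBMLD and SafLD lay below all 9 arrays of control, saffron and LD, a division of the groups that was chosen after the values were seen. The 71 were chosen with SafLD lower than LD, so part of this division was set in advance. Its share over all entities was not counted. The labels name no extraction or hybridisation batch, and whether the arrays were handled in batches was not tested.

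The 4 rises averaged 4.95, 4.72 and 4.54 in LD and 6.36, 6.36 and 6.15 in SafLD. Control arrays stood at 4.45 to 5.19, saffron arrays at 4.92 to 5.43, PBM arrays at 5.44 to 5.73 and PBMLD arrays at 5.36 to 5.66. SafLD was thus the highest group for the rises.

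Relative to control, the 71 falls had a median difference of 0.12 in LD and of -1.40 in SafLD. Of these, 68 passed adjusted p of 0.05 in SafLD against control, which shares the SafLD arrays. Saffron without bright light had a median of 0.43, with 0 of the 71 passing by limma. PBM against control uses none of the SafLD or LD arrays. There 38 entities fell (0.130%) and 1 rose (0.00342%), and 35 of the falls were shared, which was 49.3% of the SafLD list and 92.1% of the PBM list. PBMLD against LD, which shares the LD arrays, had a median of -1.39 for the 71, and 45 passed. SafLD and PBMLD differed by a median of -0.09, and none of the 71 passed, with a smallest adjusted p of 0.487. Apart from PBM against control, the share of all entities that passed these contrasts was not counted. Where SafLD or LD arrays are shared, the counts are partly set by the choice of the 71.

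A direct test asked whether the saffron difference with light departed from the saffron difference without it. It did so in 41 entities (0.140%) at adjusted p of 0.05 by limma, all negative and more than 2-fold. None of the 41 had a symbol, and 40 were among the 71 falls. SafLD minus LD is 1 side of this test and also chose the 71, so part of this overlap was set in advance. For entity 10862359 saffron minus control was 0.53 without light and SafLD minus LD was -3.02, a difference of -3.55 ± 0.42 (adjusted p = 0.000428). None of the 4 rises passed this test. With the numbered stretch left out, 10 entities passed it.

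Fewer named genes passed the test. At adjusted p of 0.05 with no fold limit, 14 entities were higher (0.0479%) and 76 lower (0.260%), and 7 of these 90 had a symbol. The clearest was Pcdhb5, a clustered protocadherin of the kind that gives neurons their surface identity. It measured 6.08, 6.45 and 6.02 in LD and 7.06, 7.32 and 7.05 in SafLD, higher by 1.94-fold (0.96 ± 0.16, adjusted p = 0.00926). All 3 SafLD arrays stood above all LD arrays. Saffron without bright light had a Pcdhb5 difference of 0.79 from control (adjusted p = 0.44), and the saffron difference with light exceeded that without it by 0.17 ± 0.23. It passed in 12 of 18 alternative settings.

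The other named genes with higher levels were Cldn24, a tight junction claudin (0.63 ± 0.13, adjusted p = 0.0446), and the olfactory receptor genes Or4e1 (0.60, adjusted p = 0.0336) and Or13m2 (0.61, adjusted p = 0.0471). All of these were dim, far below the array medians. Their LD and SafLD means were 3.47 and 4.10 for Cldn24, 3.08 and 3.68 for Or4e1, and 3.52 and 4.13 for Or13m2. The named genes that were lower in SafLD were Dnai3, a part of ciliary dynein, Tma7, a small protein linked to translation, and Spetex2el3, a rodent gene of a family first described in spermatids. Dnai3 measured 4.87, 4.66 and 4.87 in LD and 3.80, 4.15 and 4.18 in SafLD (-0.76 ± 0.15, adjusted p = 0.0401). Tma7 measured 11.57, 11.59 and 11.94 in LD and 11.18, 10.90 and 10.84 in SafLD (-0.73 ± 0.15, adjusted p = 0.0428). In both the groups did not overlap. Spetex2el3 differed by -0.81 ± 0.16 (adjusted p = 0.0411), and its 4 probe sets ranged from -0.81 to -0.75 with adjusted p up to 0.118. Each of these 6 calls was kept in 4 to 7 of the 17 or 18 alternative settings.

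Further named genes that came near the threshold without passing it were given by the smallest unadjusted p-values. On the lower side, Rpl39, a small protein of the large ribosomal subunit, had 7 probe sets with differences from -1.20 to -1.03 and adjusted p of 0.0523 at the smallest. Rpl41, another small ribosomal protein, differed by -0.97 (adjusted p = 0.0733). Krt18, a keratin of simple epithelia, differed by -0.94 (adjusted p = 0.0671), but its 3 probe sets ranged from -0.94 to 0.08. Hsf4, a heat shock factor with a known role in the lens, differed by -0.75, Triap1, an inhibitor of apoptosis under p53, by -0.61, Nepn by -0.55 and Znrd2 by -0.49. On the higher side, Sf3b1, a core spliceosome subunit, measured 10.71, 10.76 and 10.75 in LD and 11.22, 11.25 and 11.28 in SafLD (0.51 ± 0.11, adjusted p = 0.0671). Its arrays were close together within each group and did not overlap. Cdh19, a cadherin, differed by 0.82 (adjusted p = 0.0733), Tsx by 0.67, Or6f2 by 0.67, Or1ad5 by 0.61 and Krtap5-8 by 0.57.

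Genes that were also followed by RT-PCR form a set of 13, and none of them passed between SafLD and LD on the arrays. Gfap, the intermediate filament of reactive glia, measured 9.46, 10.37 and 9.86 in LD and 9.38, 9.85 and 9.96 in SafLD. The ranges overlapped, with LD 2 above every SafLD array, and the difference was -0.17 (95% interval -0.73 to 0.40), while both groups stood 3.27 and 3.11 above control. Stat3, its upstream transcription factor, differed by -0.05 (interval -0.42 to 0.33), and Socs3, the feedback inhibitor of that pathway, by -0.19 (interval -0.92 to 0.54). Fgf2, a survival factor for photoreceptors, differed by -0.08 (interval -0.86 to 0.71). For Gfap, Stat3, Socs3 and Fgf2 the direction changed when LD 2 or SafLD 1 was left out. Edn2, an endothelin that stressed photoreceptors release, differed by 0.27 (interval -0.15 to 0.69).

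Ccl2, the chemokine that attracts monocytes, measured 9.13, 10.94 and 11.38 in LD and 9.23, 9.06 and 10.27 in SafLD. LD 1 lay at the level of SafLD and the other LD arrays above it, so that the difference of -0.97 ± 0.84 had a wide interval (-2.74 to 0.81, adjusted p = 0.760). Hmox1, the haem oxygenase of the oxidative stress response, measured 6.12, 7.47 and 8.0 in LD and 5.68, 6.62 and 6.81 in SafLD, a difference of -0.82 ± 0.38 (adjusted p = 0.509). LD 1 again lay within the SafLD range. Gpx3, a secreted glutathione peroxidase, measured 8.43, 8.13 and 8.32 in LD and 7.93, 7.79 and 7.30 in SafLD. These groups did not overlap, but the difference of -0.62 ± 0.20 had an adjusted p of 0.278.

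Fabp5, a carrier of fatty acids that the lens also expresses, measured 8.84, 6.40 and 9.21 in LD and 6.91, 6.88 and 6.57 in SafLD. LD 2 lay below all SafLD arrays and the other LD arrays far above them (-1.36 ± 0.48, adjusted p = 0.342). Crot, a peroxisomal enzyme of fatty acid breakdown, measured 10.53, 10.88 and 11.08 in LD and 10.96, 11.10 and 11.30 in SafLD (0.29 ± 0.14, adjusted p = 0.522). Among genes that were lower in light than in control, Optn, an autophagy receptor, differed by -0.20 (interval -0.45 to 0.06), Smarcd1, a subunit of a chromatin remodeller, by -0.15 (interval -0.49 to 0.19) and Agt, the precursor of angiotensin, by 0.05 (interval -0.27 to 0.37). The reference genes Actb and Gapdh differed by -0.23 and -0.02.

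**Figure D3:**
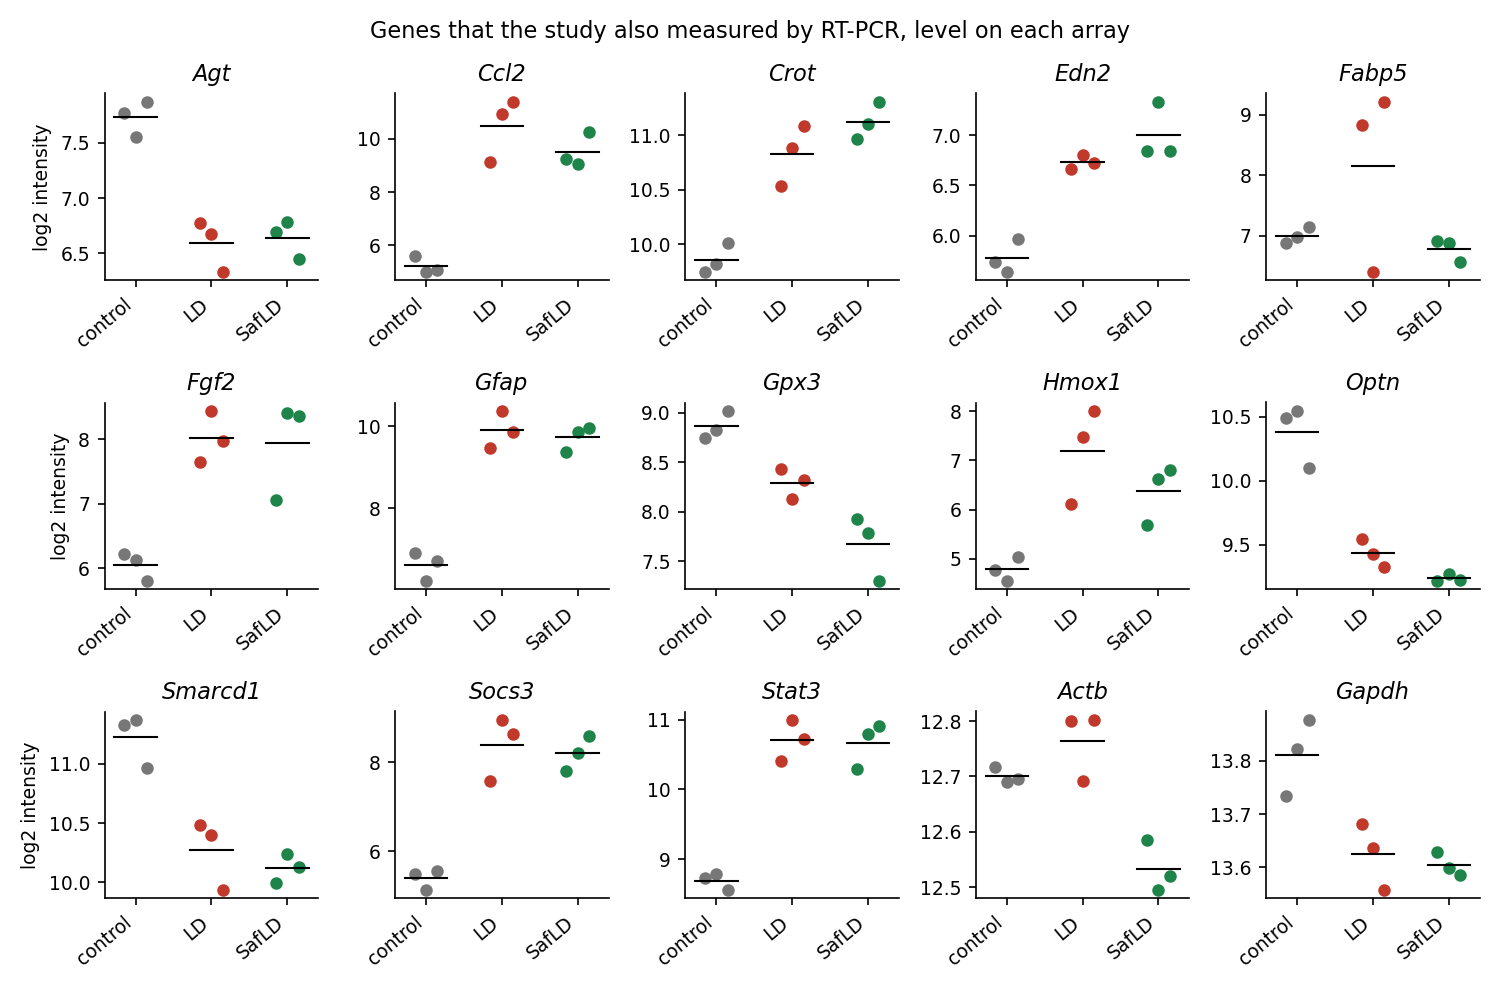
Each panel is 1 of 13 genes also followed by RT-PCR or of the reference genes Actb and Gapdh, with the log2 intensity of each control, LD and SafLD array as a point and the group mean as a line; y axes differ between panels. SafLD and LD points overlap for Gfap, Stat3, Socs3, Fgf2 and Ccl2, and Gpx3, Optn and Actb are lower in all 3 SafLD arrays.

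Entities that light had changed were then followed as a set, chosen from the mean of LD and SafLD against control which weights both groups equally. Light raised 147 entities (0.503%), of which 117 were named, and lowered 34 (0.116%). The raised entities stood above control by a median of 1.57 in LD and 1.42 in SafLD. Array by array the medians were 1.17, 1.83 and 1.77 in LD and 1.23, 1.47 and 1.59 in SafLD. LD 1 was thus the lowest of the 6 arrays, and the LD and SafLD ranges overlapped. The median SafLD minus LD difference of the raised entities was -0.11, with quartiles at -0.42 and 0.13. Of the 147, 0 passed adjusted p of 0.05 by limma. At an unadjusted p below 0.05 there were 19, 11 higher and 8 lower, beside 1542 higher and 1249 lower of all 29214 entities. SafLD lay wholly above LD in 10.2% of the raised entities and wholly below in 1.36%, beside 10.1% and 6.50% of all entities. The 34 lowered entities had a median of -0.13. Of these, 9 passed adjusted p of 0.05, all lower in SafLD and all without a symbol, beside 0.260% of all entities on the lower side. An entity low in SafLD alone could enter this set through the mean. Their medians relative to control were -0.77, -0.95 and -1.42 in LD and -1.32, -1.28 and -1.29 in SafLD.

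Genes were also grouped into lists by role. Over 30 lists with 516 measured genes, 0 members passed adjusted p of 0.05 by limma, and the smallest adjusted p was 0.131. At an unadjusted p below 0.05 there were 11 members higher and 63 lower in SafLD, beside 599 and 479 of the 14506 named genes. The groups did not overlap in 3.88% of the members on the higher side and 10.9% on the lower side, beside 10.1% and 6.50% of all entities. The median over all named genes was 0.03.

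**Figure D4:**
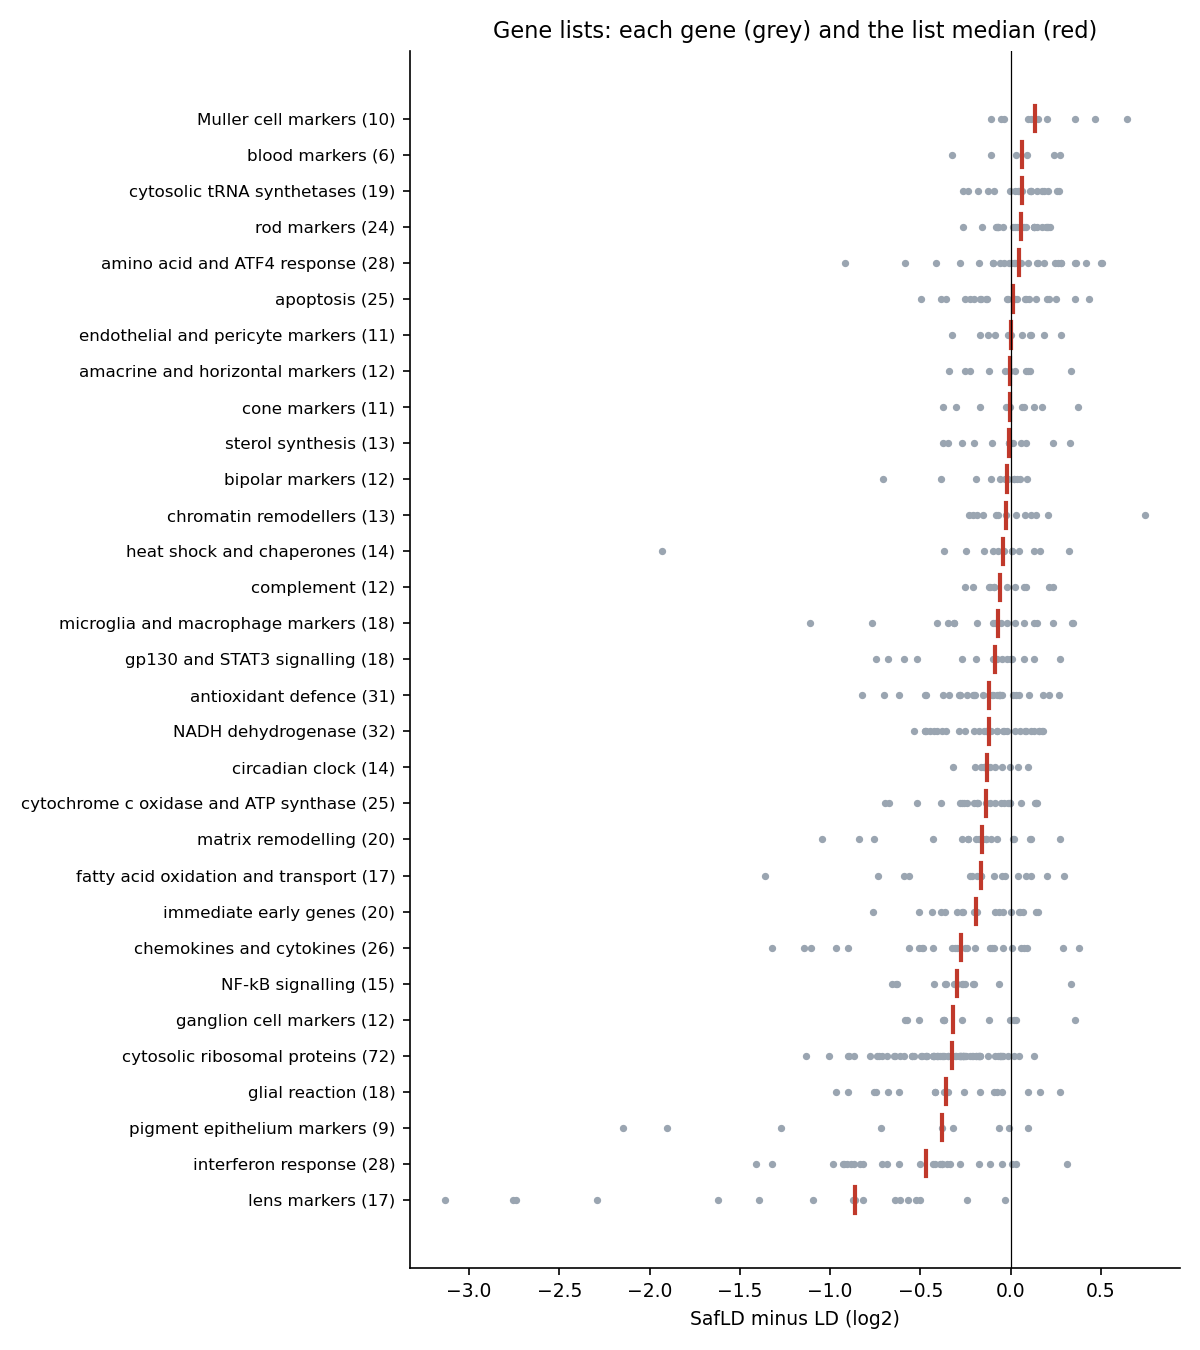
Each row is 1 gene list, the x axis gives SafLD minus LD in log2 units, grey points are the measured members (the brightest probe set of each gene) and the red mark is the list median. The number of measured members is in parentheses. The lens list has the lowest median at -0.86 and the Muller cell list the highest at 0.13.

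Most inflammatory genes measured lower in SafLD, and none passed the test. Of 28 measured interferon response genes 25 were lower in SafLD, with a median of -0.47, and 3 had an unadjusted p below 0.05. Their mean on each array was 6.27, 7.73 and 7.68 in LD and 6.54, 6.80 and 6.70 in SafLD, against 5.76 to 5.91 in control. LD 1 lay below every SafLD array and the other LD arrays above all of them. Cxcl10, a chemokine induced by interferon that attracts T cells, measured 6.35, 9.83 and 10.05 in LD and 6.50, 7.92 and 7.85 in SafLD (-1.32 ± 0.89, adjusted p = 0.673). Gbp2, an interferon-induced GTPase, showed the same order, at 7.66, 9.90 and 10.39 in LD and 8.01, 8.38 and 8.77 in SafLD (-0.93 ± 0.58). Ifit1, an antiviral protein that binds foreign RNA, had another, at 4.10, 6.34 and 3.07 in LD and 2.79, 3.20 and 3.28 in SafLD (-1.41 ± 0.50, adjusted p = 0.342).

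Of the 26 chemokines and cytokines 20 were lower in SafLD, with a median of -0.28. Ccl3, a chemokine that attracts macrophages, measured 7.60, 9.06 and 9.63 in LD and 7.38, 7.61 and 7.88 in SafLD (-1.14 ± 0.59, adjusted p = 0.561). LD 1 was again inside the SafLD range. The cytokine Il1b measured 4.72, 5.80 and 5.94 in LD and 4.63, 5.24 and 5.30 in SafLD (-0.43 ± 0.30). Of 15 NF-kB signalling genes 14 were lower, with a median of -0.30 and Nfkb2, a subunit of the factor itself, at -0.66. The 18 gp130 and STAT3 genes had a median of -0.08, with 12 lower and 6 higher and 0 at an unadjusted p below 0.05. The growth factor Lif, a gp130 ligand released by Muller glia after injury, measured 6.90, 8.43 and 7.84 in LD and 7.44, 7.47 and 8.48 in SafLD, with a difference of 0.07. The 18 glial reaction genes had a median of -0.36, led by Lcn2, an iron-binding protein of reactive glia (-0.97 ± 0.65).

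Microglia and macrophage markers had a median of -0.07 over 18 genes, 11 of them lower in SafLD and 7 higher. SafLD lay wholly above LD in 2 (11.1%) and wholly below in 2 (11.1%), beside 9.29% and 5.78% of all named genes. The exception in size was Lyz2, the lysozyme of macrophages, at 6.55, 7.39 and 7.83 in LD and 6.24, 5.97 and 6.23 in SafLD (-1.11 ± 0.30, adjusted p = 0.155). Its groups did not overlap. The defining marker Aif1 measured 5.59, 5.90 and 6.01 in LD and 5.60, 5.64 and 5.32 in SafLD, a difference of -0.31 ± 0.16. The median of the 12 complement genes was -0.06.

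Markers of the light-sensing cells had medians near that of all named genes. The 24 rod markers had a median of 0.06, and Pde6b, a subunit of the rod phosphodiesterase, measured 12.62, 12.60 and 12.18 in LD and 12.59, 12.74 and 12.67 in SafLD. LD 3 was the lowest of the 6 arrays. The 11 cone markers had a median of -0.01 and the 12 bipolar markers one of -0.02. The 10 Muller cell markers had a median of 0.13, with Rlbp1, a retinoid carrier of these cells, at 11.75, 11.51 and 10.77 in LD and 11.61, 11.83 and 11.66 in SafLD. Here too LD 3 was low and the other arrays alike.

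Ganglion cell markers had the lowest median among the lists of retinal neurons, -0.32 over 12 genes. In 5 of the 12 (41.7%) every SafLD array lay below every LD array, beside 5.78% of all named genes. In saffron without bright light, the same list had a median of -0.32 against control. Sncg, a synuclein of ganglion cells, measured 10.84, 10.91 and 10.83 in LD and 10.38, 10.24 and 10.21 in SafLD (-0.58 ± 0.21, adjusted p = 0.339). Thy1, the surface protein used to label these cells, measured 10.63, 10.76 and 10.24 in LD and 9.92, 10.11 and 10.08 in SafLD (-0.51 ± 0.19, adjusted p = 0.388). In both the groups were separate. Slc17a6, the glutamate transporter of the same cells, had a positive difference (0.36 ± 0.28).

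Antioxidant defence genes had a median of -0.12 over 31 genes, 24 of them lower in SafLD. Sod2, the mitochondrial superoxide dismutase, measured 10.01, 11.07 and 11.02 in LD and 10.13, 10.37 and 10.76 in SafLD (-0.28 ± 0.27). Nqo1, a quinone reductase under Nrf2, measured 6.47, 6.88 and 6.12 in LD and 6.61, 6.42 and 6.26 in SafLD (-0.06 ± 0.19). The groups overlapped in both. The 32 NADH dehydrogenase genes had a median of -0.12, with 10 (31.25%) lying wholly lower in SafLD, beside 5.78% of all named genes. The 25 genes of cytochrome c oxidase and ATP synthase had a median of -0.13. Ndufb6, a subunit of NADH dehydrogenase, differed by -0.53 ± 0.24 and Atp5mg, a subunit of ATP synthase, by -0.69 ± 0.24.

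The amino acid and ATF4 list had a median of 0.05, with 18 of 28 genes higher in SafLD and 4 of them at an unadjusted p below 0.05. Mthfd2, an enzyme of mitochondrial folate metabolism, measured 9.03, 8.73 and 8.63 in LD and 9.22, 9.13 and 9.30 in SafLD (0.42 ± 0.14, adjusted p = 0.303). Slc1a4, a transporter of neutral amino acids, measured 8.37, 8.35 and 8.09 in LD and 8.56, 8.78 and 8.96 in SafLD (0.50 ± 0.19). Neither overlapped. Ddit3, a stress transcription factor under ATF4, was lower in all SafLD arrays (-0.59 ± 0.23, adjusted p = 0.397). Hells, a chromatin remodeller, measured 8.05, 8.35 and 8.54 in LD and 9.02, 8.91 and 9.24 in SafLD (0.74 ± 0.21, adjusted p = 0.196).

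The remaining lists had medians between -0.19 and 0.06. Among 20 immediate early genes, the activity-induced factor Npas4 measured 7.51, 8.86 and 9.41 in LD and 7.59, 7.72 and 8.19 in SafLD (-0.76 ± 0.34, adjusted p = 0.483). LD 1 lay below all SafLD arrays. Among 20 matrix remodelling genes, Mmp3, the metalloproteinase stromelysin, measured 5.39, 8.47 and 8.67 in LD and 6.24, 6.26 and 6.91 in SafLD (-1.04 ± 0.67), with LD 1 again the lowest array. Plaur, the urokinase receptor, had the highest difference of that list, at 0.27. The 14 chaperones ranged from Hspb1, described with the lens genes, to Hspd1, the mitochondrial chaperonin, at 0.33 ± 0.14. The 19 cytosolic tRNA synthetases lay between -0.26 (Wars1) and 0.27 (Aars1), and the 14 circadian genes between -0.32 (Bhlhe40) and 0.10 (Bmal1). Among 25 apoptosis genes, Casp2, an initiator caspase, differed by 0.44 ± 0.18 (adjusted p = 0.433) and the death receptor Fas by -0.49 ± 0.41. Lss and Fdps, enzymes of sterol synthesis, differed by 0.33 and -0.37. The 17 genes of fatty acid oxidation and transport ranged from Fabp5 to Crot.

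Among the cell markers not yet named, Gng13, a G protein subunit of ON bipolar cells, measured 8.90, 8.62 and 9.21 in LD and 8.55, 8.14 and 7.92 in SafLD (-0.71 ± 0.24, adjusted p = 0.305). Gpr37, an orphan receptor listed for Muller cells, measured 9.26, 8.73 and 7.86 in LD and 9.24, 9.35 and 9.20 in SafLD (0.65 ± 0.26, adjusted p = 0.407). The Gpr37 groups overlapped through LD 1, and the Gng13 groups did not overlap. The cone opsins had opposite signs, with Opn1sw at 0.38 ± 0.21 and Opn1mw at -0.37 ± 0.15. Th, the enzyme of dopamine synthesis in amacrine cells, differed by 0.34 ± 0.21 and the amacrine calcium-binding protein Calb2 by -0.34 ± 0.13. P2ry12, a purine receptor of resting microglia, differed by 0.35 ± 0.24. None of these passed adjusted p of 0.05. The 11 endothelial and pericyte markers and the 6 blood markers had medians of 0.00 and 0.06.

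The ribosomal proteins were listed after the values were seen. Of 72 measured, 69 were lower in SafLD, beside 6195 of all 14506 named genes, and the median was -0.32. Of the 72, 27 (37.5%) lay wholly below LD, beside 5.78% of named genes. None of the 72 passed adjusted p of 0.05 by limma. At an unadjusted p below 0.05 there were 29, all lower, beside 479 lower of the 14506 named genes. The mean of the 72 was 10.73, 10.70 and 10.90 in LD and 10.69, 10.29 and 10.24 in SafLD. SafLD 1 thus stood nearly at the LD level and the other SafLD arrays below it. Control arrays ranged from 10.47 to 10.89 and saffron arrays without bright light from 10.52 to 10.95. PBM arrays, with neither saffron nor bright light, ranged from 10.32 to 10.42, within the SafLD range. PBMLD arrays ranged from 10.18 to 10.90. The cause of the lower ribosomal level was not tested.

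Lens and pigment epithelium markers, from tissues next to the retina, differed widely between the LD arrays. All 17 measured lens markers were lower in SafLD, with a median of -0.86. The mean of the list was 10.89, 8.52 and 10.84 in LD and 9.32, 8.74 and 8.53 in SafLD, and the control arrays ranged from 8.54 to 9.13. LD 1 and LD 3 were thus high, and LD 2 stood at the level of the SafLD and control arrays. The 46 distinct falls averaged 8.51 in LD 1, 8.42 in LD 2 and 9.03 in LD 3, so that LD 2 was the lowest LD array there and LD 1 stood near it. The falls averaged 8.35 to 8.44 in control arrays and 6.46 to 7.13 in SafLD arrays, while the lens means of both groups overlapped. With the lens mean of each array as a covariate 46 entities were called, 43 of them falls, beside 75 and 71 without it. The part of lens RNA in the falls was not tested. Bfsp1, the lens filament protein filensin, measured 10.38, 6.0 and 10.44 in LD and 5.91, 5.89 and 5.62 in SafLD (-3.13 ± 0.94, adjusted p = 0.228). Without LD 2 the lens difference widened to -2.0 and 28 named entities passed, led by Bfsp1, the lens glutamine synthetase-like gene Lgsn and the crystallin Cryga. Without LD 1, 10 named entities passed, led by Serpinb2, an inhibitor of urokinase, at -3.36, and including the interferon-induced Oas1i, Ifi44l and Oasl and the macrophage lysozyme Lyz2 at -1.46. With both lens-rich LD arrays left out, LD 2 alone stood for LD, its spread was taken from the other groups, and the lens difference was 0.34. The 43 entities that passed then, 40 lower and 6 of them named, compare SafLD with a single LD array.

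The 9 pigment epithelium markers had a median of -0.38, and 4 (44.4%) lay wholly below LD, beside 5.78% of all named genes. Ttr, the retinol and thyroid hormone carrier transthyretin, measured 9.50, 8.56 and 9.43 in LD and 7.22, 6.10 and 7.74 in SafLD (-2.15 ± 0.69, adjusted p = 0.273). Rgr, a retinal G protein-coupled opsin, measured 8.75, 8.02 and 9.28 in LD and 6.51, 6.34 and 7.49 in SafLD (-1.90 ± 0.57, adjusted p = 0.232). The visual cycle isomerase Rpe65 overlapped between groups, at 6.70, 4.77 and 5.03 in LD and 4.24, 3.68 and 4.77 in SafLD. The mean of the list was 6.46, 6.05 and 6.91 in LD and 6.18, 5.28 and 5.73 in SafLD, and 5.45 to 6.30 in control. The part of pigment epithelium RNA in other differences was not tested.

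**Figure D5:**
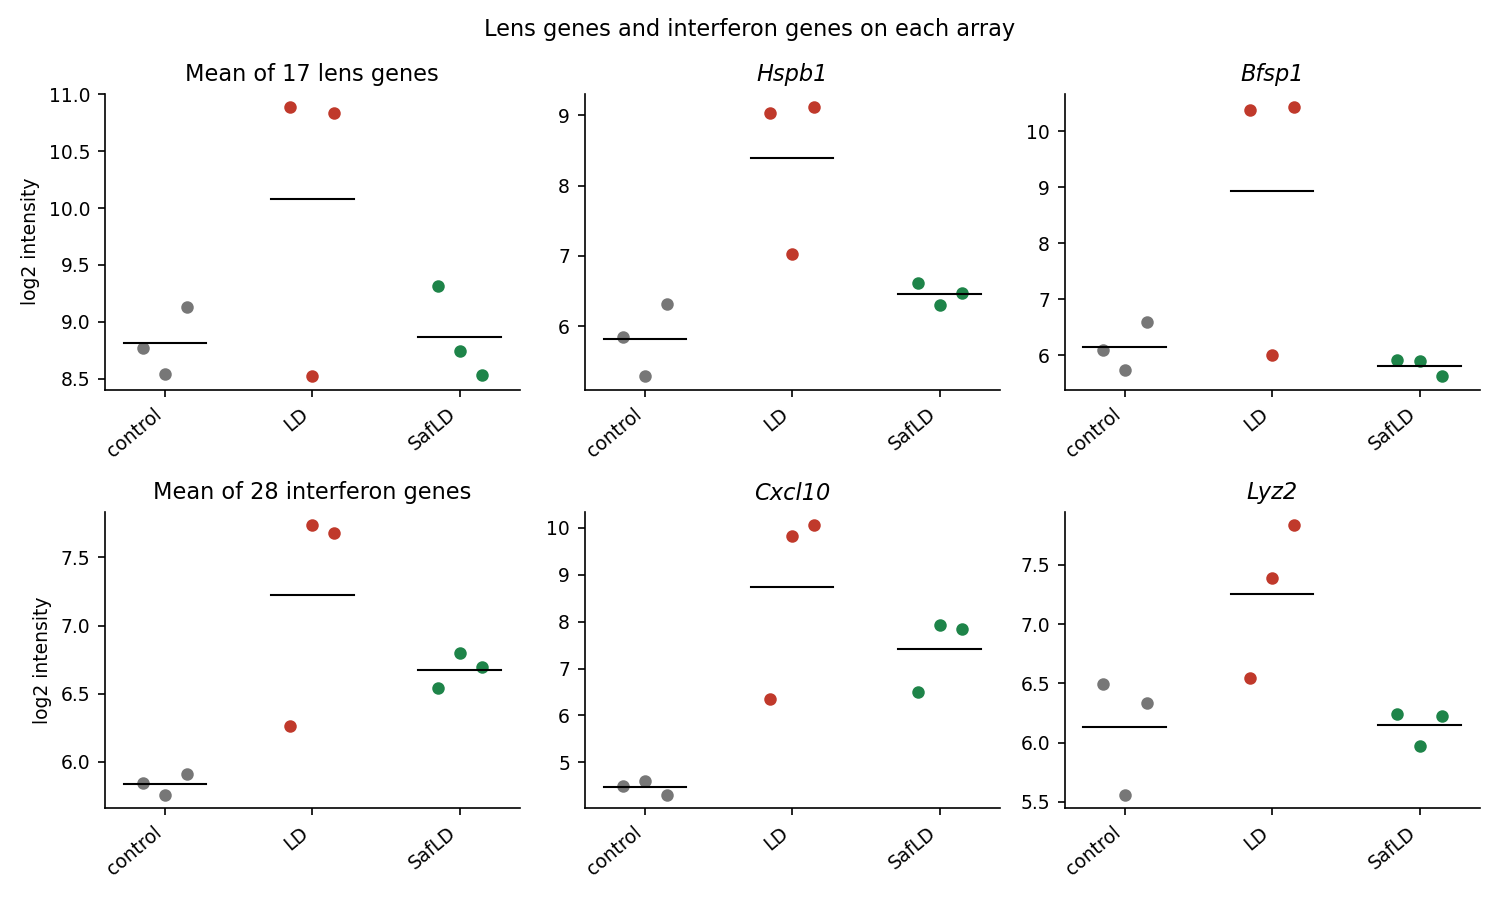
Points are arrays and lines are group means of control, LD and SafLD, with log2 intensity on the y axis (ranges differ between panels), for the mean of 17 lens genes, Hspb1 and Bfsp1 in the upper row and the mean of 28 interferon response genes, Cxcl10 and Lyz2 in the lower row. LD 2 is the low LD point in the upper row, with Bfsp1 at 6.0, and LD 1 is the low LD point in the lower row, with Cxcl10 at 6.35.

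The spread within LD ran through the named genes with the widest differences. A difference of more than 2-fold, at any p-value, was found in 42 named entities. One, Dcn, a matrix proteoglycan, was higher (1.03, adjusted p = 0.635), and 41, from 33 genes, were lower. In 20 of the 33 genes the lowest LD array was LD 2, in 11 it was LD 1 and in 2 it was LD 3. The 7 lens genes among them all had LD 2 lowest, while 6 belonged to the interferon, chemokine or matrix lists. In 12 of the 33, which were chosen by the size of the difference, the groups did not overlap, beside 5.78% of all named genes wholly below LD. Hspb1, a small heat shock protein that reactive glia and lens both express, was one of these, at 9.03, 7.02 and 9.12 in LD and 6.62, 6.30 and 6.47 in SafLD (-1.93 ± 0.49, adjusted p = 0.131). Anxa8, an annexin, and S100a6, a calcium-binding protein, differed by -1.41 and -1.40.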

How the data were processed

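Retinal RNA had been measured on Affymetrix rat Gene 1.0 ST arrays, 3 in each of 6 groups. What the authors deposited is a log2 intensity for every probe set on every array, made with RMA. According to the submitters' processing notes, the program was Affymetrix Expression Console, version 1.1.2800.19935. No source used here gives a genome build. Background correction and summarisation of probes cannot be repeated from these values, and RMA brings array distributions together, so a shift of all genes would not be seen. The labels give 3 arrays per group, and the study's methods give 4 animals per group without the sex of each array. The study describes its samples as retinas of different animals, so p-values measure the spread between animals together with that of the arrays. All value columns matched a sample.

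A limma model (version 3.58.1, R 4.3.3) with a mean for each group was fitted to all 18 arrays (12 residual degrees of freedom), two-sided, with Benjamini-Hochberg adjustment over 29214 probe sets. The steps were tested on simulated data. With 3 arrays against 3 an exact permutation test cannot go below a p of 0.10, so none is given. Symbols came from the platform table, the brightest probe set stood for a gene in the lists, and 1618 probe sets are identified by no table. Precision is limited by the number of arrays.

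The members and the lists were chosen with earlier results of these data known. The genes named were the 10 widest called falls and up to 5 rises, named genes with adjusted p below 0.05 and, where fewer than 10 passed in a direction, the 10 with the smallest p, the RT-PCR genes, and the extremes of each list. Chosen after the values were seen were the ribosomal list, the genes beyond 2-fold or called in single settings, the division of groups into 9 and 9 arrays, and other list members given as examples. Alternatives were other tests and variance models, array weights, no fold limit, other normalizations, removal of dim probe sets, a block for replicate number, lens RNA as a covariate, arrays left out, and, chosen after seeing the data, distinct values and the numbered stretch.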

Additional observations from a re-analysis of the deposited data

Results flagged for a closer look

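For 10 of the unnamed entities described above, the saffron difference under bright light departed from the saffron difference without it by a direct test of the interaction in the limma fit. They were the 10 widest falls of SafLD against LD, so they were chosen by a contrast that is 1 side of this test. Saffron minus control was positive and not past the threshold in all 10, and SafLD minus LD was negative. The difference between the contrasts was -3.55 for entity 10862359, -3.62 for 10855946, -3.47 for 10722459 and -3.30 for 10722465. It was -3.22 for 10703224, -2.94 for 10722449, -2.93 for 10722427, -2.92 for 10722429, -2.91 for 10722435 and -2.89 for 10722481. Adjusted p-values ran from 0.000363 to 0.00307 over all entities. The PBM arrays, with neither saffron nor bright light, lay near the SafLD arrays for these entities (SafLD minus PBM from -0.58 to -0.04), and the part of array handling in the difference was not tested. With 3 arrays in each group, single arrays were not screened as outliers.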

How the results depend on the processing

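With the fold limit kept, falls outnumbered rises in each setting below that made calls, while the counts varied. The methods' t-test without adjustment called 174 entities (46 higher, 128 lower, 15 named), 2767 with no fold limit and 49 list members. With Benjamini-Hochberg it called 0, with 0 higher, 0 lower and 0 at any fold. The 6 arrays alone gave 48 (11 higher, 37 lower) and 50 at any fold. Array weights gave 161 (34 higher, 127 lower, 14 named), 642 at any fold, 13 list members, 114 interactions and a light-raised median of 0.065. No fold limit gave 14 higher and 7 named. Cyclic loess gave 2 higher and 1 named, Krt18. Named entities called numbered 4 with a variance trend, 5 with median centring, 5 without dim entities and 5 without unidentified ones, all Rpl39. The lens covariate gave 46 (43 lower, 2 named), 52 at any fold and 2 list members. Without the 2 lens-rich LD arrays, which leaves 1 LD array that is assumed to vary like the other groups, there were 43 (40 lower, 6 named), 44 at any fold, 3 list members and a lens difference of 0.34. The 61 entities lowered in PBMLD against control had a median SafLD minus LD of -1.46. Their median in LD against control was 0.11, so most were not lowered by light alone. Chosen after seeing the data, 1 entity per distinct set of values gave 39 (36 lower) and 44 at any fold, and leaving out the numbered stretch gave 16 (0 higher, 16 lower), 18 at any fold and 10 interactions.

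Leaving out each array in turn gave 38 (without SafLD 2) to 123 entities (without LD 2), 1 to 5 higher, 37 to 118 lower, 0 to 28 named, 41 to 137 at any fold, 0 to 10 list members and 39 to 119 interactions. Without LD 3 there were 46 entities and without SafLD 3 there were 45. The light-raised median ran from -0.34 to -0.01, the light-lowered one from -0.33 to 0.05 and the lens difference from -2.0 to -0.81. With the replicate block, 97 of the 104 entities and genes chosen for the text, with or without a symbol, were unchanged in call, 5 lost it and 2 gained it, and counts stayed within 1.5 times. The numbers did not pair the samples, since deviations of same-numbered LD and SafLD arrays correlated at -0.10, 0.20 and -0.06.

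Among single genes, signs changed for differences that passed in neither setting, of which Fabp5 at -1.36 was the widest. With array weights these were Agt (-0.035), Fgf2 (0.18), Socs3 (0.077), Stat3 (0.088) and Serpina3n (0.083). Quantile normalization gave Stat3 0.029 and Gapdh 0.16, and cyclic loess gave Gapdh 0.074. The lens covariate gave Slc24a1 -0.061 and Cryge 0.099. Without the 2 lens-rich LD arrays they were Agt -0.031, Fabp5 0.38, Tap2 -0.026, Slc24a1 -0.17, Th -0.015 and Cd55 0.038. Leaving out 1 array gave ranges of -0.054 to 0.0073 for Gapdh, -0.20 to 0.11 for Cryge, -0.31 to 0.36 for Fgf2, -0.38 to 0.071 for Gfap, -0.60 to 0.092 for Socs3, -0.20 to 0.15 for Stat3, -0.081 to 0.15 for Agt and -0.21 to 0.45 for Slc24a1. The cause of these changes was not tested. With 3 arrays per group the smallest difference that passed was 0.55.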
